A study of Caenorhabditis elegans with 8 samples.

Results

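The 7 fatty acid desaturase genes of Caenorhabditis elegans, fat-1 to fat-7, were followed through 2 RNA-seq comparisons of animals in which the cleavage stimulation factor subunit CstF50 was targeted by RNAi. They were taken by gene symbol, and all 7 were found among the 44968 rows for poly(A) RNA and among the 25640 genes for rRNA-depleted RNA. The series holds 8 libraries from synchronized young adults grown in liquid culture, in 4 groups of 2 libraries. The groups were wild type (Wt) and RNAi CstF50, each as poly(A)-selected RNA and as rRNA-depleted total RNA. The column headers of the poly(A) values name the wild-type strain N2 with L4440, the empty RNAi vector, and RNAi of cpf-1, the worm gene of CstF50. The rRNA-depleted values are headed only condition A and condition B, so no group was assigned to them and every difference there is B against A. No label says that the 2 libraries of a group came from separate cultures, so p-values measure the spread between these libraries, which may be technical.

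Desaturases place double bonds into fatty acid chains, working with cytochrome b5 in the endoplasmic reticulum. Worms make their polyunsaturated fatty acids without a dietary supply because they carry a full set of these enzymes. FAT-5 acts mainly on palmitic acid, and FAT-6 and FAT-7 convert stearic acid to oleic acid, the first step. FAT-2 converts oleic to linoleic acid, FAT-3 and FAT-4 place the later double bonds of arachidonic and eicosapentaenoic acid, and FAT-1 converts omega-6 to omega-3 fatty acids. The intestine is a main site of fatty acid synthesis and storage in the worm, and these libraries hold whole animals, so fewer cells of a type and less RNA per cell cannot be told apart.

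The genes lie on 2 autosomes, with coordinates given here on ce10. On chromosome IV, fat-4 (T13F2.1) spans 9799407 to 9802211, and fat-3 (W08D2.4) follows it at 9803006 to 9806101. The gap between them is 794 bases, and both are on the plus strand in the WBcel235 annotation. On the same chromosome, fat-6 (VZK822L.1) is given at 11913667 to 11917317, fat-1 (Y67H2A.8) at 13315618 to 13318759 and fat-2 (W02A2.1) at 13323826 to 13326370, which leaves 5066 bases between fat-1 and fat-2. On chromosome V, fat-7 (F10D2.9) is listed in a locus from 7150696 to 7156205 that it shares with F10D2.10, and fat-5 (W06D12.3) in a locus from 17723754 to 17732500 that it shares with twk-42 and W06D12.8. In WBcel235 the coding sequences encode between 333 residues (fat-5) and 447 residues (fat-4), and fat-6 and fat-7 are of almost the same length with 339 and 338. FAT-6 and FAT-7 are close paralogs, and how the authors' counting treated reads that match both is not given in the sources used here, so the split between them is uncertain.

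The targeted gene does not check the labels. In the authors' deposited table cpf-1 had 50.5 FPKM in the libraries labelled wild type and 67.8 FPKM in those labelled CstF50 RNAi (q = 0.613), and whether reads of the RNAi trigger were counted was not tested, so CstF50 RNAi here stands for the libraries so labelled. In rRNA-depleted RNA cpf-1 had 1651 and 1738 normalized counts in A and 6976 and 10348 in B (adjusted p = 0.00296, authors' deposited table). Recovered counts, which lack the genes of highest mean, summed to between 2852379 and 35793329 per library. The recovered genes held 12.1% of the normalized counts in A and 42.9% in B, so these sums are not full library depths. For poly(A) RNA no depth per library is known.

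In poly(A) RNA, 1 of the 7 desaturase genes passed the authors' test. Of the 8513 genes tested by the authors, 16.8% were called at a q-value under 0.05, 3.12% as higher in RNAi and 13.6% as lower. The gene for the linoleic acid step, fat-2, rose 3.01-fold in CstF50 RNAi. The stearoyl-CoA desaturase genes fat-6 and fat-7 had 2.44-fold and 4.01-fold higher FPKM there without passing, and fat-1, fat-3, fat-4 and fat-5 had values within 1.5-fold of wild type. FPKM is a fragment count corrected for transcript length and library depth, and the authors give a single value for each group.

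In the authors' deposited table fat-2 stands at 197 FPKM for wild type and 595 FPKM for CstF50 RNAi. The log2 fold change was 1.59, with a standard error (SE) of 0.45 implied by the authors' p-value and a 95% interval from 0.70 to 2.48. The authors' deposited table, in Cuffdiff's layout, lists q = 0.00860 for it. Among all tested genes fat-2 stood at percentile 86.0 by FPKM in wild type and at percentile 95.6 in CstF50 RNAi.

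**Figure D1:**
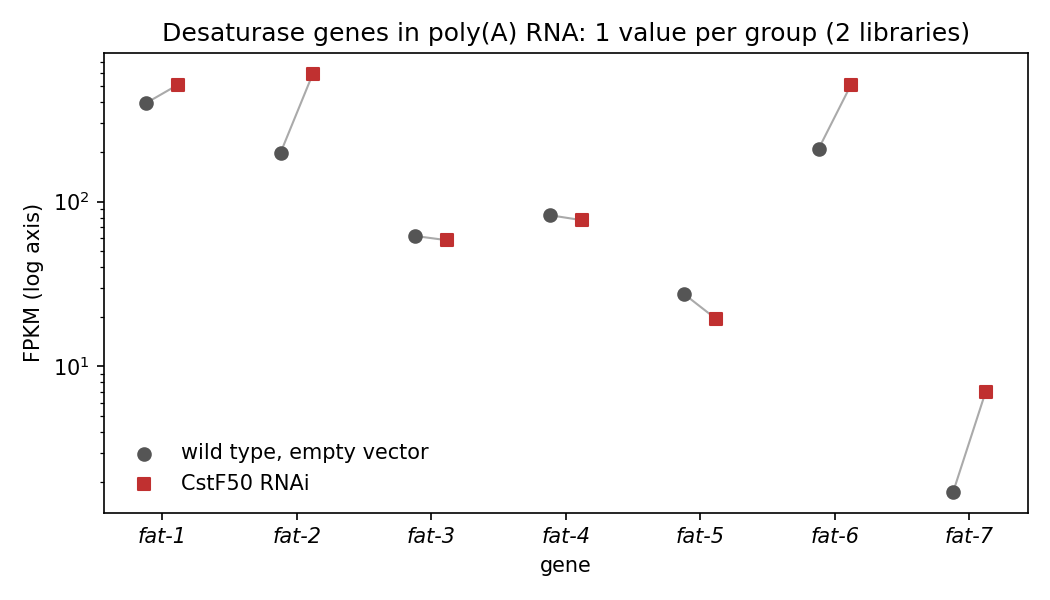
FPKM of the 7 desaturase genes in poly(A) RNA on a log axis, with 1 authors' value per group of 2 libraries and no error bar. Grey circles are wild type with the empty vector and red squares are CstF50 RNAi; fat-2 goes from 197 to 595 FPKM, while fat-7 is the lowest of the 7 genes in both groups.

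Most tested genes had lower FPKM in CstF50 RNAi. Over the 8244 tested genes with FPKM above 0 in both groups, log2 fold changes had a median of -0.90, and 81.3% were negative. Taken relative to that median, 5.64% of genes passed as higher and 0.509% as lower, by a normal deviate with the implied SE. On this scale fat-2 stood at 2.49 (adjusted p = 5.29e-06) and fat-6 at 2.18 (adjusted p = 0.0132), so that 2 of the 7 genes passed. The median of the 7 members was 0.37 before centring.

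None of the palmitate and stearate desaturases, which start the pathway, passed by the authors' q-value in poly(A) RNA, and their 95% intervals overlapped. In the authors' deposited table fat-6 is listed at 209 FPKM for wild type and 511 for RNAi (q = 0.137), and its log2 fold change was 1.29, with an implied SE of 0.63. Against the median gene fat-6 stood at 2.18 and passed (adjusted p = 0.0132). Its paralog fat-7 is listed at 1.74 and 6.98 FPKM (q = 0.225 in the authors' deposited table), and its log2 fold change of 2.01 had the widest error of the 7 genes, an implied SE of 1.21. Unlike these, fat-5 is lower for RNAi, with 27.5 against 19.3 FPKM (q = 0.475 in the authors' deposited table). Its log2 fold change was -0.51, with an implied SE of 0.50, and stood at 0.39 against the median gene. In both groups fat-6 made up most of the FPKM of these 3 genes. The FPKM of fat-6 was 7.62 times that of fat-5 in wild type and 26.4 times in RNAi, and 120 and 73.2 times that of fat-7.

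For fat-3, fat-4 and fat-1 of the later steps the log2 fold changes lay nearest to 0 before centring, while relative to the median gene that of fat-5 did. The gene fat-3, for the enzyme that opens the path to the long-chain polyunsaturated fatty acids, is given 61.8 and 58.2 FPKM for wild type and RNAi (q = 0.908, authors' deposited table). Its neighbour fat-4, for the last desaturation towards arachidonic acid, is given 82.7 and 77.1 FPKM (q = 0.888, authors' deposited table). Their log2 fold changes of -0.09 (implied SE 0.47) and -0.10 (implied SE 0.46) became 0.81 and 0.79 relative to the median gene, neither of which passed (adjusted p = 0.440 for each). The 95% intervals before centring were wide, from -1.01 to 0.84 and from -1.01 to 0.81. The ratio of fat-4 to fat-3 FPKM was 1.34 in wild type and 1.32 in RNAi. For fat-1, the gene of the omega-3 desaturase, the authors' deposited table has 396 and 512 FPKM (q = 0.559). Its log2 fold change was 0.37 (implied SE 0.45), or 1.27 relative to the median gene (adjusted p = 0.0711).

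The order of the levels changed at the top and not below. In wild type the FPKM ran down from fat-1 through fat-6, fat-2, fat-4, fat-3 and fat-5 to fat-7, which was listed at 1.74 FPKM. In CstF50 RNAi fat-2 came first, followed by fat-1 and fat-6 with 512 and 511 FPKM, and the other four kept their order. With no value per library, the spread behind this order is unknown. The summed FPKM of the 7 genes was 976 in wild type and 1780 in RNAi, 1.82 times as much, and no test of this sum was possible. Of that sum fat-2 made up 20.2% in wild type and 33.4% in RNAi, fat-1 40.5% and 28.8%, and fat-3 and fat-4 together 14.8% and 7.61%.

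In rRNA-depleted RNA, 2 of the 7 genes passed the authors' test, fat-5 and fat-2, and both were higher in condition B. The palmitoyl-CoA desaturase gene fat-5 was 2.68-fold and fat-2 1.95-fold higher. The other 5 genes differed by 1.05-fold to 1.36-fold between the condition means. Of all 25640 genes, 8.31% were called at an adjusted p-value under 0.05, with 5.54% higher in B and 2.77% lower. The median log2 fold change over genes was near 0 here, at 0.02 for the condition means.

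Each condition mean is the mean of 2 whole counts divided by the size factors of their libraries, which allowed the counts per library to be recovered for all 7 members. The size factors came out at 0.739 and 0.249 for libraries 1 and 2 of A, and at 3.63 and 1.54 for those of B. Normalized counts are these counts divided by the size factor. Library numbers 1 and 2 follow the depth found here and carry no link to the labels' replicate numbers. With 2 libraries against 2, a 2-sided exact permutation test of a single gene cannot go below p = 0.333, so single genes were read from the authors' test and from limma-voom fitted across 19958 genes.

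For fat-5, A held 284 and 82 counts in libraries 1 and 2, and B held 3272 and 1563. These are 384 and 329 normalized counts in A and 901 and 1015 in B, so both libraries of B lay above both of A by more than the libraries of a condition differed. Its means in the authors' deposited table were 357 and 958 normalized counts (adjusted p = 1.09e-05). By limma-voom the log2 fold change was 1.35 (SE 0.17, 95% interval 0.98 to 1.73) with an adjusted p of 0.000236. The fat-5 gene overlaps the potassium channel gene twk-42 and the non-coding RNA W06D12.8, both on the opposite strand, and whether the counting used strand is not given in the sources used here. Those genes had 32.4 and 56.9 (twk-42) and 8.05 and 27.8 (W06D12.8) normalized counts in A and B in the authors' deposited table, well below fat-5.

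For fat-2 the libraries held 2604 and 885 counts in A, against 24599 and 10815 in B. The normalized counts were 3525 and 3553 in A, against 6772 and 7020 in B, an almost 2-fold gap with very little spread inside a condition. The authors' deposited table lists means of 3539 and 6896 for it (adjusted p = 4.45e-05). By limma-voom the log2 fold change was 0.96 (SE 0.08, 95% interval 0.79 to 1.13) with an adjusted p of 7.86e-06.

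**Figure D2:**
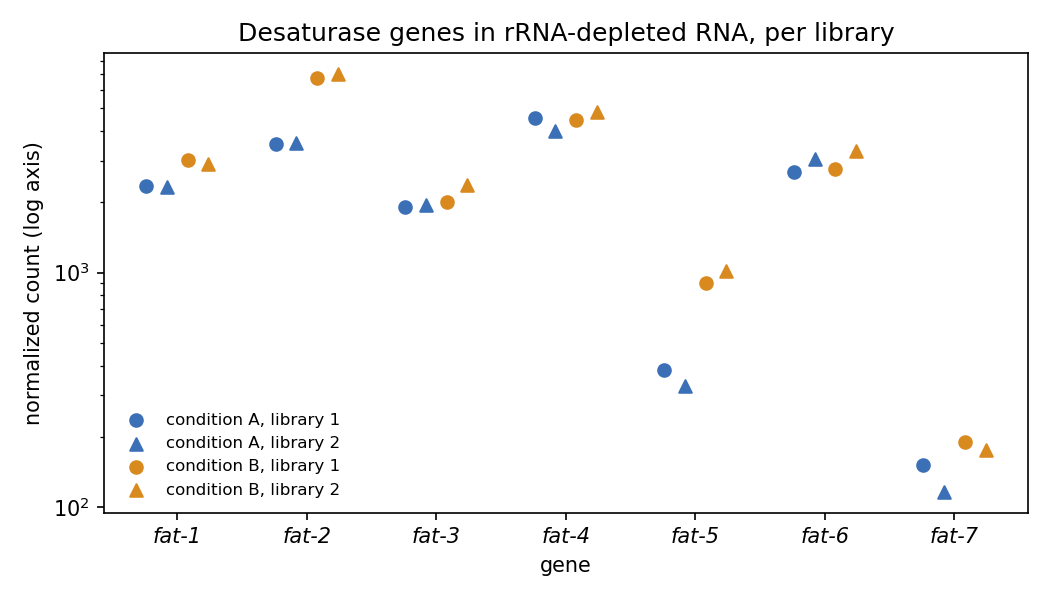
Normalized counts of the 7 desaturase genes in each rRNA-depleted library on a log axis; blue marks condition A, orange condition B, circles library 1 and triangles library 2. The libraries of B lie clearly above those of A for fat-2 and fat-5, whereas the 2 conditions overlap for fat-4 and fat-6.

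The omega-3 desaturase gene fat-1 passed by limma-voom but not by the authors' test. It had 2335 and 2308 normalized counts in A and 3029 and 2900 in B, so the libraries did not overlap. The authors' deposited table lists means of 2322 and 2965 (adjusted p = 0.489). By limma-voom its log2 fold change of 0.36 (SE 0.09) passed with an adjusted p of 0.0113, and without library 1 or library 2 of A it did not (adjusted p = 0.215 and 0.160). With fat-2 and fat-5 that makes 3 of 7 members higher by limma-voom, a test that called 28.8% of its genes, 16.2% as higher in B and 12.5% as lower.

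The stearoyl-CoA desaturase fat-6 had 2681 and 3059 normalized counts in A, against 2763 and 3292 in B. The libraries overlapped, and the log2 fold change by limma-voom was 0.07 with a 95% interval from -0.18 to 0.32 (adjusted p = 0.684). Without library 1 of A and without library 2 of B its sign turned, with log2 fold changes of -0.02 and -0.03. Its paralog fat-7 had 112 and 29 counts in A and 689 and 270 in B, or 152 and 116 normalized counts against 190 and 175. The libraries of fat-7 did not overlap, and its limma-voom log2 fold change of 0.38 was slightly larger than the 0.36 of fat-1. Its 95% interval was wide, from -0.15 to 0.92 (adjusted p = 0.271 by limma-voom), and the authors' deposited table lists adjusted p = 1 for fat-7. F10D2.10, which shares the fat-7 locus in the poly(A) table, had 164 and 204 normalized counts in A and B in the authors' deposited table. These lie above the fat-7 means of 134 and 182. In poly(A) RNA F10D2.10 had 0.17 FPKM in wild type and 0.08 in RNAi, untested. Whether reads of F10D2.10 add to the fat-7 counts was not tested.

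Of the neighbouring genes fat-3 and fat-4 neither passed. The fat-3 gene had 1904 and 1947 normalized counts in A and 1990 and 2356 in B, without overlap, and a limma-voom log2 fold change of 0.14 (SE 0.12, adjusted p = 0.400). The fat-4 gene had 4533 and 4010 in A and 4487 and 4820 in B, with overlap, and a log2 fold change of 0.09 (SE 0.09, adjusted p = 0.489). Both are listed with adjusted p = 1 in the authors' deposited table. Over all genes with recovered counts, both libraries of B lay above both of A in 36.0%, so the order seen in 5 of the 7 members is no result in itself.

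**Figure D3:**
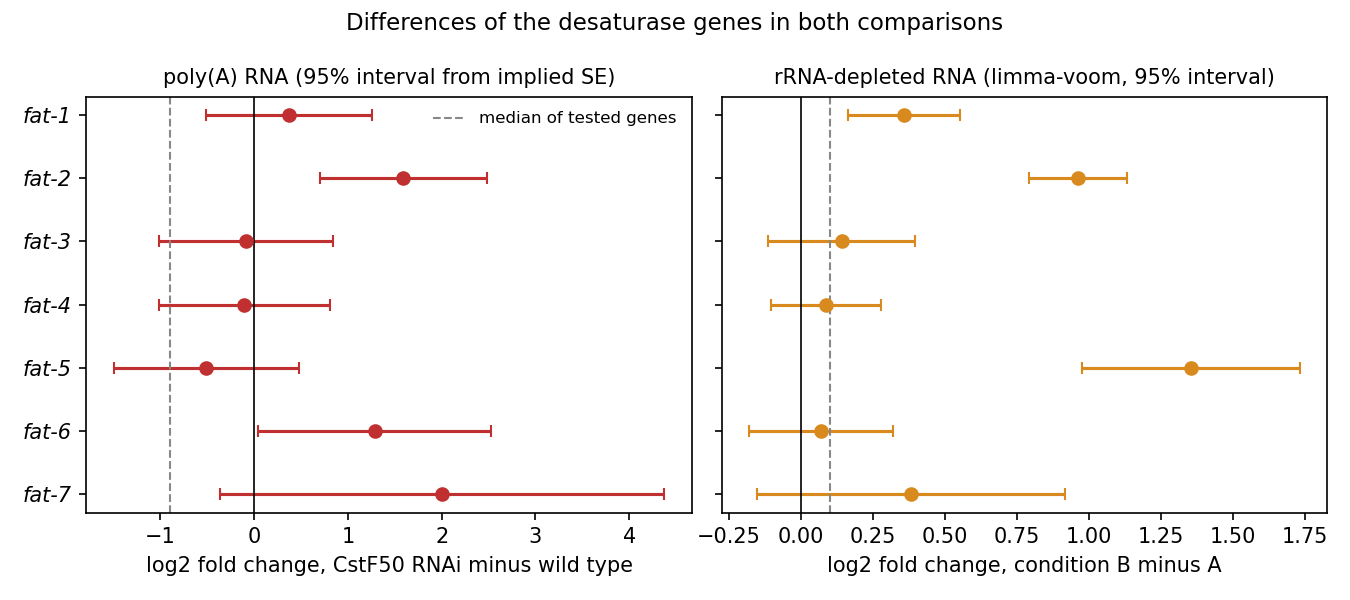
Log2 fold changes of the 7 genes with 95% intervals, on the left for poly(A) RNA (CstF50 RNAi minus wild type, interval from the implied SE) and on the right for rRNA-depleted RNA (condition B minus A, limma-voom). Dashed lines mark the median gene, and the 2 panels have different x axes. The interval of fat-2 lies above 0 in both panels. That of fat-6 does so only on the left (from 0.04). Those of fat-1 (from 0.16) and of fat-5, where the value is 1.35, do so only on the right.

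Ratios of 2 genes within a library do not depend on the scaling of that library. The ratio of fat-2 to fat-1 normalized counts was 1.51 and 1.54 in A, against 2.24 and 2.42 in B. Per exonic kilobase the ratio of fat-2 to fat-1 was 1.70 and 1.74 in A, against 2.52 and 2.73 in B. In poly(A) RNA the ratio of their FPKM, which is corrected for length, was 0.499 in wild type and 1.16 in CstF50 RNAi. The ratio of fat-6 to fat-5 normalized counts was 6.98 and 9.29 in A, against 3.07 and 3.25 in B. The ratio of their FPKM was 7.62 in wild type and 26.4 in CstF50 RNAi. The rRNA-depleted libraries separated by condition for both pairs, each of which holds a gene called higher in B. The ratio of fat-6 to fat-7 was 17.7 and 26.3 in A and 14.6 and 18.8 in B, where the conditions overlapped. The ratio of fat-4 to fat-3 was 2.38 and 2.06 in A and 2.25 and 2.05 in B, where the conditions overlapped.

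Scaled to exonic length in WBcel235, the order of the levels in rRNA-depleted RNA was fat-2, fat-4, fat-6, fat-1, fat-3, fat-5 and fat-7 in both conditions. In A, fat-2 with 2809 and 2831 normalized counts per kilobase overlapped fat-4 with 2944 and 2604, and fat-4 overlapped fat-6 with 2300 and 2623. In B, fat-2 stood alone with 5396 and 5593 normalized counts per kilobase, above fat-4 with 2913 and 3130. No other neighbours in the order overlapped in either condition. The lowest member, fat-7, had 135 and 103 normalized counts per kilobase in A, against 168 and 156 in B. The share of fat-2 in the summed level per length was 24.5% and 24.8% in A and 35.7% and 34.4% in B, and that of fat-5 was 3.04% and 2.62% in A and 5.39% and 5.66% in B.

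**Figure D4:**
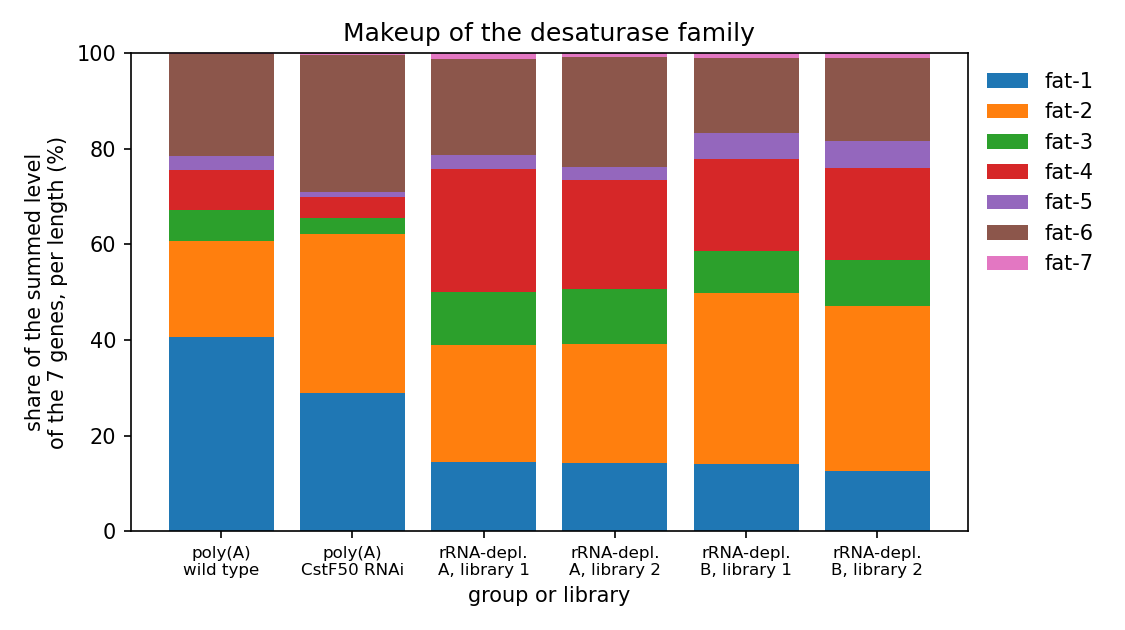
Share of each desaturase gene in the summed level of the 7 genes, in percent, from FPKM for poly(A) RNA and from normalized counts per exonic kilobase for each rRNA-depleted library. The orange segment of fat-2 is 20.2% in wild type and 33.4% in RNAi for poly(A) RNA, and 24.5% and 24.8% in A against 35.7% and 34.4% in B; the 2 kinds of RNA were normalized separately.

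The pattern over both comparisons was set against 8147 genes tested for poly(A) RNA and above 0 in every group. The genes nearest to fat-2, by the distance between the pairs of log2 fold changes, were C31C9.2 (distance 0.02), the annexin gene nex-1 (0.08) and the hedgehog-related gene grd-3 (0.09). Nearest to fat-5 were klf-3, a gene for a Kruppel-like transcription factor (0.07), K08E3.10 (0.10) and C36C5.5 (0.10). Those nearest to fat-6 were F18C5.10 (0.02), hil-4 (0.08), a linker histone gene, and C15H11.11 (0.09), and to fat-7 C10E2.6 (0.08), the saposin-like gene spp-1 (0.09) and fipp-1 (0.13). For fat-1 they were rnp-7, cts-1, the citrate synthase gene, and ngp-1, for fat-3 kin-10, ZK616.2 and C55A6.4, and for fat-4 F39F10.3, D2030.2 and epg-2, all at distances that round to 0.03 or less. The likeness covers 2 differences only.

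The enzymes that build and lengthen the fatty acids which the desaturases act on stood near the background of all genes in poly(A) RNA. Of 13 tested genes of synthesis and elongation, 2 fell, none rose and 11 did not pass, beside 13.6% of all tested genes called lower. The median log2 fold change was -0.91 beside -0.90 for all tested genes. The elongase gene elo-5, needed for branched-chain fatty acids, fell from 292 to 49.2 FPKM (q = 0.000757, authors' deposited table), and hpo-8, for the dehydratase of the elongation cycle, from 544 to 181 FPKM (q = 0.0125, authors' deposited table). Neither passed relative to the median gene (adjusted p = 0.0597 and 0.571). In rRNA-depleted RNA 1 of 17 genes was higher in B and 3 were lower, beside 5.54% and 2.77% of all genes. The fatty acid synthase gene fasn-1 had 3670 and 3501 normalized counts in A and 7675 and 8375 in B (adjusted p = 4.54e-07, authors' deposited table). Lower in B were elo-5, with 4633 and 4516 against 2386 and 2264 normalized counts, elo-2, with 1531 and 1493 against 783 and 1089, and elo-9, with 241 and 265 against 112 and 87.6. The authors' deposited table lists adjusted p of 0.000146, 0.0290 and 0.0350 for them, and without library 1 of A elo-2 did not pass by limma-voom (adjusted p = 0.101).

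The partners that deliver electrons to the desaturases were not called in either table. The cytochrome b5 gene cytb-5.2 had 542 and 424 FPKM in wild type and RNAi in the authors' deposited table, cytb-5.1 had 138 and 135, and the cytochrome b5 reductase gene hpo-19 had 261 and 151. In rRNA-depleted RNA cytb-5.2 had 815 and 759 normalized counts in A and 511 and 445 in B. For it the authors' deposited table lists adjusted p = 0.0661, and limma-voom gave 0.00325, while without library 1 of A limma-voom called 0 of the 3 genes.

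Among the regulators of desaturase genes and of membrane fluidity, 1 of 12 tested genes fell in poly(A) RNA and none rose, again near the 13.6% called lower over all tested genes, with a median log2 fold change of -0.96. The Mediator subunit gene mdt-15, which is needed for fat-6 and fat-7 expression in worms, fell from 37.4 to 9.89 FPKM (q = 0.0117, authors' deposited table), but missed the threshold against the median gene (adjusted p = 0.401). In rRNA-depleted RNA the SREBP gene sbp-1 was the 1 of 14 that passed, beside 8.31% of all genes. It had 374 and 723 normalized counts in A and 1082 and 1286 in B, and the gap inside A was almost as large as the gap between the conditions. The authors' deposited table lists adjusted p = 0.0188 for it. Without library 1 of A it did not pass by limma-voom (adjusted p = 0.105). There mdt-15 had 1049 and 1008 normalized counts in A, against 1350 and 1444 in B. The authors' deposited table lists adjusted p = 0.414 for it, and limma-voom gave 0.0197 with all libraries, 0.197 without library 1 of A and 0.147 without library 2 of A.

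**Figure D5:**
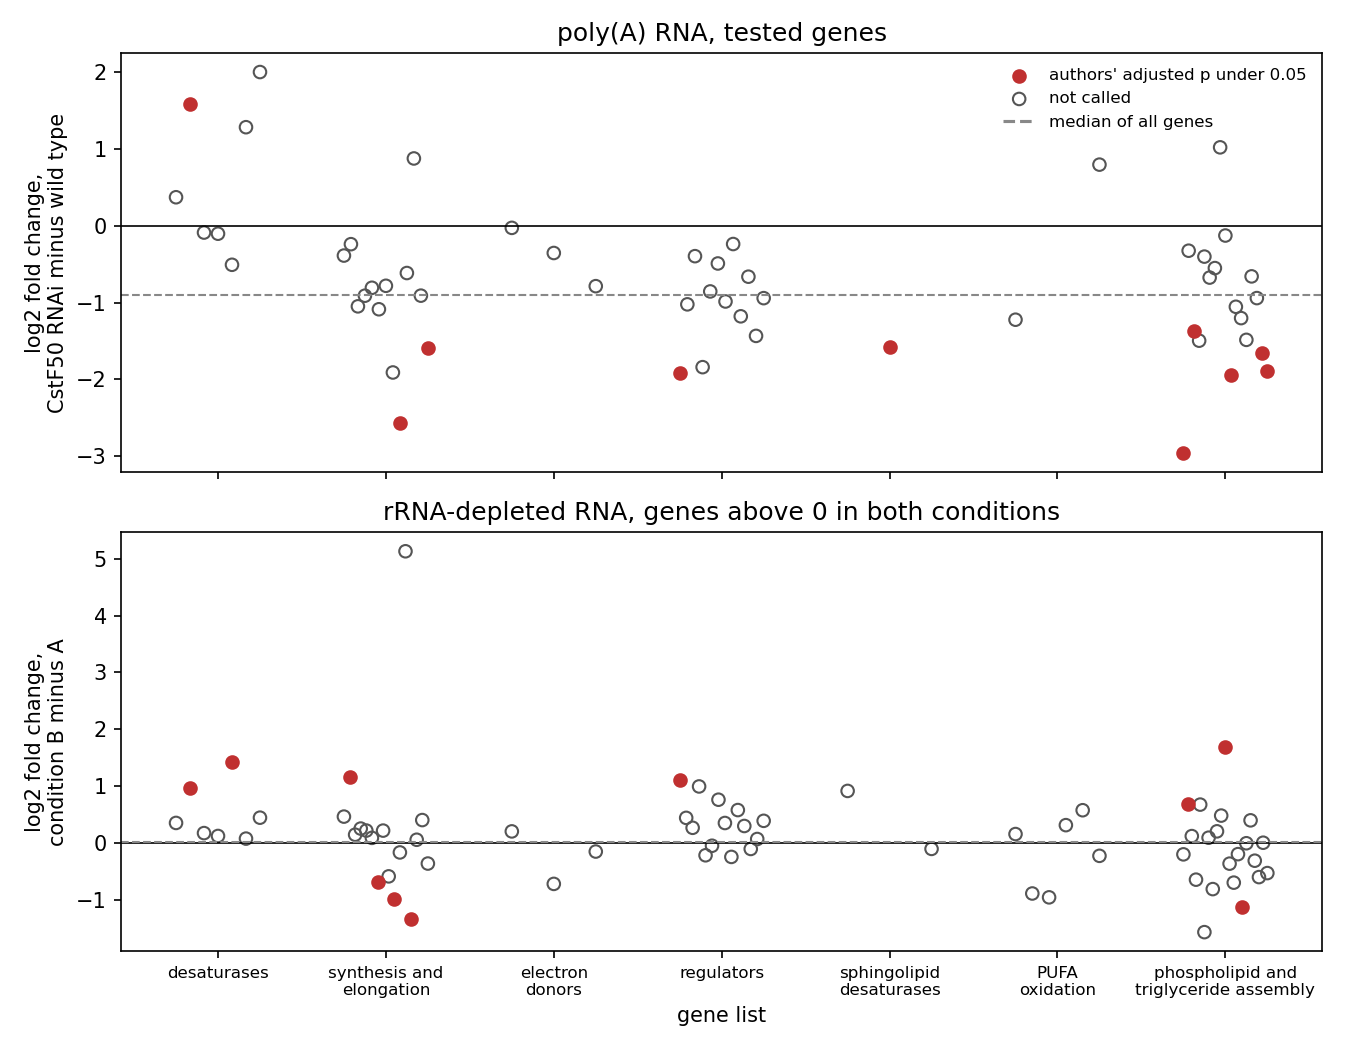
Log2 fold changes of the desaturase genes and of 6 pathway lists, above for tested genes in poly(A) RNA (CstF50 RNAi minus wild type) and below for rRNA-depleted RNA (condition B minus A). Filled red points have an authors' adjusted p under 0.05, open points do not, and the dashed line is the median of all genes at -0.90 above and 0.02 below; fat-2 is the 1 filled point above 0 in the upper panel.

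By the authors' q-value, genes of phospholipid and triglyceride assembly moved down where they were called in poly(A) RNA. Of 17 tested genes 5 fell, none rose and 12 did not pass, beside 13.6% of all tested genes called lower and 3.12% higher. The median log2 fold change was -1.05, beside -0.90 for all tested genes. The S-adenosylmethionine synthetase gene sams-1, which supplies methyl groups for phosphatidylcholine, fell from 241 to 31.1 FPKM (q = 8.64e-05, authors' deposited table) and also passed against the median gene (adjusted p = 0.0101). The others were pmt-2 (575 and 222 FPKM), mboa-3 (20.4 and 5.30), pssy-2 (52.2 and 16.5) and psd-1 (98.2 and 26.5) in the authors' deposited table. None of these passed against the median gene. The gene dgat-2 had 22.3 FPKM in wild type and 45.3 in RNAi (q = 0.243, authors' deposited table). Against the median gene it passed as higher (adjusted p = 0.0454). In rRNA-depleted RNA 2 of 21 genes were higher in B and 1 lower, beside 5.54% and 2.77% of all genes. The triglyceride synthesis gene dgat-2 had 137 and 132 normalized counts in A and 443 and 423 in B, and pmt-1, for a phosphocholine synthesis step, 1949 and 1935 in A, against 3103 and 3110 in B. The acyltransferase gene mboa-7 had 347 and 317 in A and 151 and 153 in B, and without library 1 of A it did not pass by limma-voom (adjusted p = 0.0502). The authors' deposited table lists adjusted p of 2.63e-05, 0.0208 and 0.0169 for dgat-2, pmt-1 and mboa-7.

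The smaller lists had few tested members. Of the sphingolipid desaturase genes, F33D4.4 fell from 100.02 to 33.6 FPKM (q = 0.0163, authors' deposited table), without passing against the median gene (adjusted p = 0.607), and ttm-5 was not tested there; neither was called in rRNA-depleted RNA. Of the 6 genes of polyunsaturated fatty acid oxidation, 2 were tested in poly(A) RNA, emb-8 and ceeh-1 (q = 0.0992 and 0.404 in the authors' deposited table), and none was called in either table.

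Markers of several tissues moved beside these genes, and their part in the results was not tested. Of all tested genes in poly(A) RNA, 3.12% were called higher in RNAi and 13.6% lower. In rRNA-depleted RNA 5.54% of all genes were called higher in B and 2.77% lower. Of 7 tested intestine markers 2 fell in poly(A) RNA and none rose, where 13.6% of all tested genes were called lower. Relative to the median gene, mtl-2 passed as higher (adjusted p = 0.0411) and pept-1 as lower (adjusted p = 0.0420), both named after their values were seen. The 9 matched markers summed to 15065 FPKM in wild type and 8645 in RNAi, of which asp-1 alone made up 11039.5 and 5890.02, and asp-1 stood at -0.01 relative to the median gene. In rRNA-depleted RNA the intestine markers summed to 26020 and 25359 normalized counts in A and to 23132 and 23279 in B, with 2 of 9 lower. The 8 sperm markers summed to 18.9 and 267 FPKM in wild type and RNAi, with 4 of 6 tested higher, and to 40.6 and 80.3 normalized counts in A against 2819 and 4518 in B, with 7 of 8 higher. In the sperm list spe-9 was listed at 0 in wild type, and msp-3, gsp-3 and gsp-4 had no count in A. Body wall muscle markers were higher in B in 5 of 5 genes and not called in the 2 tested in poly(A) RNA, and hypodermis markers had 3 of 7 higher in B, 1 of 6 tested higher and 1 lower in poly(A) RNA, with rol-6 at 0 in A. Of 8 germline markers 1 fell in poly(A) RNA and 1 was higher in B, and both calls were of the same gene, glp-1. Among the neuron markers 1 of 4 tested fell in poly(A) RNA and 1 of 6 was lower in B. Of the genes of adult animals, vitellogenins and adult collagens, 1 of 7 fell and 3 of 8 were higher in B. None was at 0, but the collagen gene col-7 had 0.077 FPKM in wild type and 2.38 in RNAi, untested. For col-7, A held 2 and 11 counts and B held 1516 and 637 (adjusted p = 3.75e-25, authors' deposited table).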

How the data were processed

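The authors deposited 2 tables of their own comparisons, without a column per library. Bowtie, DESeq and the build ce10 are named in the submitters' processing notes; no source used here names the counter, annotation or filters. For poly(A) RNA the authors give 1 FPKM per group, a p-value and a q-value, per the file headers in Cuffdiff's layout. For rRNA-depleted RNA the deposited signal is a mean normalized count for each of conditions A and B, per the file headers, beside raw and adjusted p-values. Each table has its own normalization, so levels were compared only within a table.

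Genes were called at an authors' q-value or adjusted p-value under 0.05. Fold changes were recomputed from the group values. The SE of a poly(A) fold change is its size over the normal deviate that matches the authors' p-value. Whole counts per library were recovered where 1 solution matched the printed mean within 0.6 units of the last digit, for means up to 30000. Of 25640 genes, 25479 were recovered for A and 25403 for B. They were fitted with limma-voom (limma 3.58.1, R 4.3.3; TMM scaling, at least 10 counts in total). The remaining steps used Python 3.11.15, numpy 2.4.6 and scipy 1.17.1. Recovery, limma-voom and the centred test were tested on simulated data. Loci are written 1-based. List genes were matched by symbol, and 1 of them was not found. The members and lists were chosen with earlier results of these data known. Named from a list are its called genes or, where none was called, up to 3 tested genes of largest change, and for each member the 3 nearest genes. Sequences were not used here.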

Additional observations from a re-analysis of the deposited data

How the results depend on the processing

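The calls of fat-2 in both tables and of fat-5 in rRNA-depleted RNA held under each alternative that could change a call, while the counts of called list genes moved with the test. Relative to the median gene 2 desaturase genes passed in poly(A) RNA, against 1 by the authors' q-value. The counts there were 0 for synthesis and elongation, 0 for regulators, 0 for sphingolipid desaturases and 2 for phospholipid and triglyceride assembly. Of these 2 assembly genes 1 was higher (dgat-2) and 1 lower (sams-1). With p-values adjusted over every listed gene, untested ones included, the counts of the 4 lists were 1, 0, 0 and 1. With that adjustment fat-2 stood close to the threshold (adjusted p = 0.0440). Relative to the median gene the signs of fat-3 (0.81), fat-4 (0.79), fat-5 (0.39), fasn-1 (0.66), elo-2 (0.12) and pmt-1 (0.57) turned in poly(A) RNA, and that of pssy-2 (-0.0130) in rRNA-depleted RNA. A minimum of 1 FPKM moved no count. A pseudocount of 1 or 0.1 FPKM (the last chosen after seeing the data) changes fold changes only and leaves the authors' q-values as they are, so it cannot test a call.

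In rRNA-depleted RNA the count of electron donors became 1 relative to the median gene and 1 with p-values adjusted over genes of at least 10 normalized counts, which also gave 2 regulators. By limma-voom the counts with TMM, with size factors and without a minimum count were 7, 7 and 7 for synthesis and elongation, 1, 1 and 1 for electron donors, 5, 5 and 6 for regulators, 1, 1 and 1 for the oxidation list, and 10, 10 and 9 for assembly. The cause was not tested. With 1 library left out, when the lone library is assumed to vary like the other condition's, limma-voom called 2 to 5 desaturase genes (5 without library 1 of B, with fat-3 and fat-6 added to fat-1). Over all genes these fits called 9.36% without library 1 of A, 16.3% without library 2 of A, 41.2% without library 1 of B and 37.9% without library 2 of B. It called 3 to 13 genes of synthesis and elongation, 0 to 2 electron donors, 1 to 10 regulators, 0 to 1 sphingolipid desaturases, 0 to 4 oxidation genes and 2 to 13 assembly genes. The highest assembly counts were 12 without library 2 of B and 13 without library 1 of B. Over these fits the log2 fold change of fat-6 ran from -0.0264 (without library 2 of B) and -0.0187 (without library 1 of A) to 0.20. It was -0.00219 without library 2 of B for pmt-2, and for pssy-2 -0.0343 without library 1 of A and -0.0113 without library 2 of B. No paired analysis was possible because the columns carry no replicate numbers. Depth limits fat-7 most, with 29 counts in library 2 of A.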
